A study of Homo sapiens with 16 samples.

Results

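The SIN3A corepressor complex is described here through 10 genes, SIN3A, SIN3B, HDAC1, HDAC2, RBBP4, RBBP7, SAP18, SAP30, SUDS3 and ING1. They were chosen by name from the 25370 genes of the count table. All 10 passed the filter on low counts, which kept 16004 genes, and their lowest count in any library was 472, for ING1. RNA was sequenced from HMC3, a human cell line in long use as a model of microglia, after 24 h of treatment, with 2 libraries for each of 8 conditions. The conditions were vehicle, 0.1 nM estradiol (E2), 400 nM ketamine, 400 nM (2R,6R)-HNK and 400 nM (2S,6S)-HNK, and 0.1 nM E2 together with 400 nM of each of the 3 drugs. HNK is hydroxynorketamine, and (2R,6R)-HNK and (2S,6S)-HNK are mirror-image forms of this ketamine metabolite. All libraries came from this same cell line, and no source says that the 2 libraries of a condition were separate cultures, so each p-value measures only the spread between these libraries, which may be technical.

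SIN3 proteins bind no DNA themselves. They are scaffolds that sequence-specific factors call to a gene, and they carry class I histone deacetylases, which take acetyl groups off histone tails and so keep chromatin closed. The RBBP chaperones hold the complex on histones, the SAP proteins and SUDS3 join the enzyme to the scaffold and stabilize it, and an ING protein reads a methylated histone tail. The study looked at SIN3A as a corepressor of STAT3, a transcription factor of cytokine and interferon signaling, and the comparison with vehicle asks which transcripts of the complex differed after treatment.

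The 16 libraries held between 55300614 and 81646165 counts, so sampling error was small for these genes. Between the replicates of a condition the scatter was 2.75 to 4.66 times what sampling alone gives, and the common coefficient of variation was 2.81%. Even numbers made up 65.8% of the counts between 1 and 9, and 49.9% of those of at least 500. Whether reads of a pair were counted separately was not tested, and if they were, sampling alone would give more scatter than assumed here and these ratios would be smaller. The microglial label was only partly borne out by marker genes, since AIF1, CX3CR1, P2RY12, TMEM119, ITGAM, PTPRC and SPI1 had 0 to 7 counts in any library. Of the 10 microglial markers, CSF1R had 24 to 89 counts, TREM2 had 25 to 79 and CD68 had 1007 to 1884. Of 6 fibroblast and pericyte markers, COL1A1 (221049 to 390090 counts), THY1 (19355 to 38968), PDGFRB (11660 to 22913) and COL1A2 (8748 to 18907) were high, whereas COL3A1 had 0 to 6 and FAP 0 to 17. Of 6 astrocyte and neuron markers, ALDH1L1 had 169 to 628 counts, SNAP25 70 to 202, SYN1 25 to 84, GFAP 15 to 46, RBFOX3 6 to 29 and AQP4 0. In bulk RNA, fewer cells of a type and less RNA per cell cannot be told apart.

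SIN3A (chromosome 15, 75661720 to 75748183, minus strand, GRCh37) and SIN3B (chromosome 19, 16940209 to 16991164, plus strand) encode the alternative scaffolds. Over 3298 aligned bases, their coding sequences were 66.6% identical. The longest stretch they shared is shown beside those of the other paralog pairs of the complex, since a read has to be unlike the paralog to be counted for its own gene. Each stretch is given 5′ to 3′ on the coding strand of the GRCh37 gene models, in lower case throughout because no base in it differs between the paralogs.
SIN3A and SIN3B, 29 bases: ttcctggacatggtgcggagcctgctgga
HDAC1 and HDAC2, 17 bases: aagcagatgcagagatt
RBBP4 and RBBP7, 26 bases: gttgctgatgatcagaaacttatgat
The shared stretch starts at coding base 2884 of SIN3A and 2551 of SIN3B. For HDAC1 and HDAC2, whose coding sequences were 75.9% identical, it starts at bases 265 and 268. For RBBP4 and RBBP7, at 76.6% identity, it starts at bases 736 and 865. None of the 3 pairs shared a window of 100 bases.

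Windows of 100 bases shared with other genes were few for most members. RBBP4 had the most, 19.2% of its 10470 windows, shared with SYNC and the pseudogenes RBBP4P1 and RBBP4P2, followed by SIN3A with 5.76%, ING1 with 3.74% (CARS2), SUDS3 with 3.13% (its pseudogene SUDS3P1), SAP30 with 2.48% and RBBP7 with 1.02%. SIN3B, HDAC1, HDAC2 and SAP18 had none. Exons of RBBP4 overlap SYNC on the other strand over 2160 bases, those of SIN3A overlap an antisense long noncoding RNA over 884, and those of RBBP7 overlap TXLNG over 179. Strand use in the counting is not given in the sources used here, so reads in these overlaps cannot be assigned with certainty. SYNC had a mean of 13.8 CPM (counts scaled to a common library size), against 148 CPM for RBBP4, and TXLNG had 18.1 CPM, against 172 CPM for RBBP7.

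The promoters were read because the study concerned STAT3, whose known motif is the palindrome TTCNNNGAA. Both strands were searched over the 250 bases upstream of RefSeq transcription starts (table on GRCh38, each window placed in GRCh37 by exact match). Of the 10 members, 9 matched an entry and SAP18 did not. The only SIN3B window (chr19:16973835-16974084) lies inside the gene, as do the only windows of HDAC2 and SAP30. For these genes, sequence upstream of the annotated gene start was not read. The motif was present in 6.57% of all 35116 windows. Some members had more than 1 window, and that share is per window and not per gene. Among the members, the motif was present in 1 window of SIN3A and 1 of ING1. These windows are printed 5′ to 3′ on the strand of the gene, with matches to TTCNNNGAA and to CCAAT, or its complement, in capitals.
SIN3A, chr15:75748157-75748406, minus strand: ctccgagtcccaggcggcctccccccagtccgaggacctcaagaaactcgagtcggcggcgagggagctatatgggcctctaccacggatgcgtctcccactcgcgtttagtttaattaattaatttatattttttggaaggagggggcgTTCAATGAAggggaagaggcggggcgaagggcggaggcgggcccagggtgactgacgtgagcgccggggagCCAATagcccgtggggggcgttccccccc
ING1, chr13:111364720-111364969, plus strand: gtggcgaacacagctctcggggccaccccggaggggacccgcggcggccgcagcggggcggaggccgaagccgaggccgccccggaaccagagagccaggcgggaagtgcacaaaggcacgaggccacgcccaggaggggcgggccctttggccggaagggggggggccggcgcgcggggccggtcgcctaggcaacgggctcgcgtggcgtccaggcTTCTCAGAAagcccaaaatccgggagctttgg
The SIN3A window also held 1 CCAAT, a motif found in 32.0% of all windows, and a second SIN3A start at chr15:75744032-75744281 had 3 CCAAT and no TTCNNNGAA. These matches describe letters in the windows and not sites that were bound.

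In vehicle, the level per kb of exon was highest for RBBP7, at 88.8 ± 0.322 CPM per kb (SD, n = 2), and next highest for HDAC1, at 70.3 ± 0.527. SAP30 was at 24.8 ± 3.31, SAP18 at 22.3 ± 0.819 and RBBP4 at 20.3 ± 0.626 CPM per kb, and SAP30 and SAP18 did not differ beyond the spread of SAP30. SUDS3 was at 10.7 ± 0.0913, SIN3A at 9.60 ± 0.296, HDAC2 at 8.59 ± 0.426, SIN3B at 8.20 ± 0.0302 and ING1 at 1.70 ± 0.117 CPM per kb. HDAC2 and SIN3B differed by less than the SD of HDAC2. The lengths are those of all annotated exons together, which for HDAC2 come to 10019 bases, so the order depends on how much of each gene model was used in the cells.

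Both vehicle libraries lay above all 14 treated libraries for SIN3A, HDAC2, RBBP7 and SAP18, and below all of them for SIN3B. For the other 5 members the vehicle and treated libraries overlapped. Of all 16004 genes tested, the vehicle libraries lay outside the treated range for 43.8%, above it for 26% and below it for 17.8%, so 5 of 10 is close to the share over all genes.

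**Figure D1:**
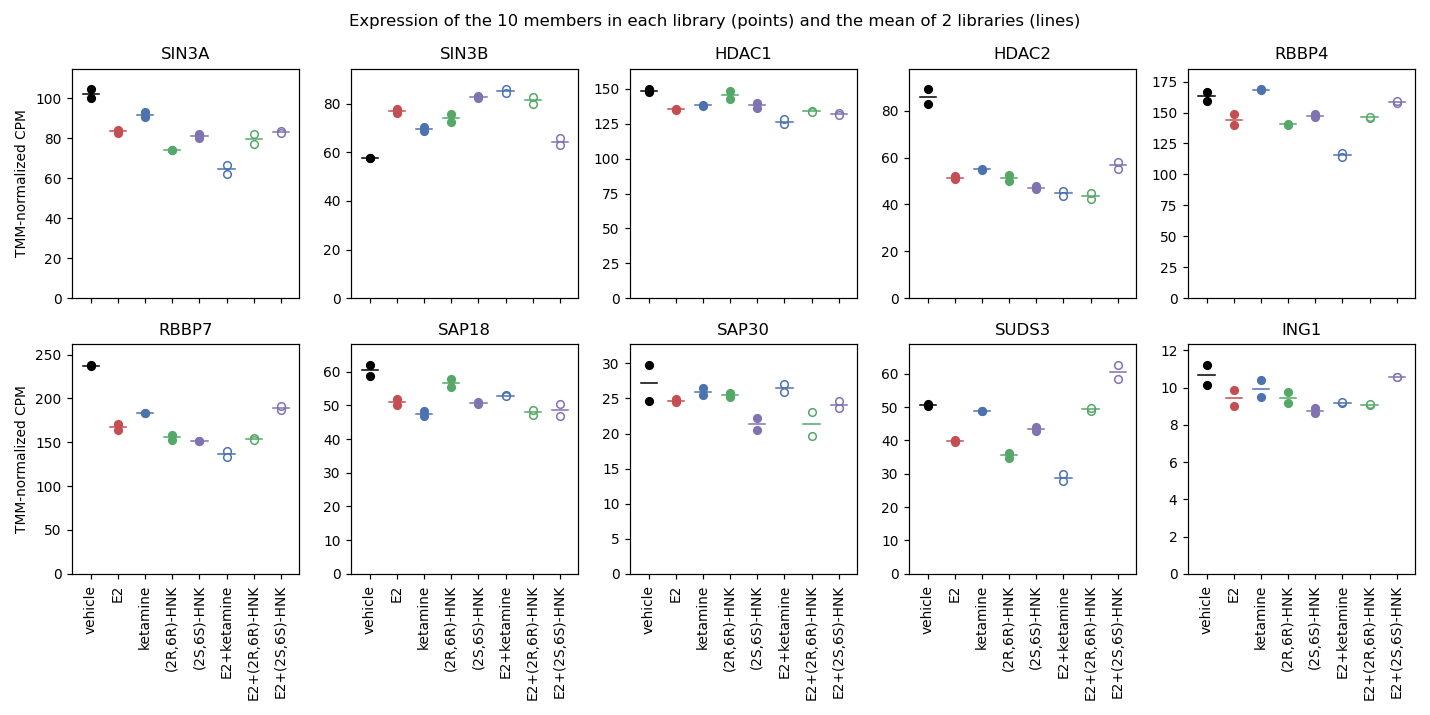
TMM-normalized CPM (vertical axes, from 0) of the 10 members in each of the 16 libraries, by condition (horizontal axes). Points are libraries, filled without and open with E2 for the drugs, and lines are means of 2 libraries. For HDAC2 and RBBP7 the vehicle points, at 83.1 and 89.1 CPM and at 238 and 237 CPM, sit above all treated points, and SUDS3 ranges from 27.7 to 62.6 CPM.

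SIN3A, the scaffold for which the complex is named, fell in all 7 treatments. It was at 99.99 and 104 CPM in the vehicle libraries, 84.1 and 82.7 with E2, 90.9 and 92.9 with ketamine, 74.2 and 74.0 with (2R,6R)-HNK and 82.3 and 80.0 with (2S,6S)-HNK. Together with E2 its level was 66.6 and 62.3 CPM with ketamine, 77.3 and 82.1 with (2R,6R)-HNK and 83.8 and 82.7 with (2S,6S)-HNK. The vehicle libraries were the highest and the E2+ketamine libraries the lowest, without overlap with any other condition. Log2 fold changes against vehicle ran from -0.15 ± 0.036 (SE) with ketamine (edgeR adjusted p = 0.000274; -0.07, adjusted p = 0.0968, and not called with upper quartile scaling) to -0.67 ± 0.038 with E2+ketamine (adjusted p = 1.94e-21), a fold of 0.631. Under a correction for GC content and length, 4 of the 7 calls were lost, those with E2 and with each drug alone (-0.07 to 0.01).

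SIN3B, the other scaffold, rose in all 7 treatments. It was at 57.8 and 57.5 CPM in vehicle, 76.0 and 77.6 with E2, 68.8 and 70.4 with ketamine, 75.7 and 72.5 with (2R,6R)-HNK and 83.0 and 82.2 with (2S,6S)-HNK. With E2 added it was at 85.8 and 84.2 CPM with ketamine, 79.7 and 82.8 with (2R,6R)-HNK and 65.8 and 62.9 with (2S,6S)-HNK. The vehicle libraries were the lowest, next to those of E2+(2S,6S)-HNK. Log2 fold changes ran from 0.16 ± 0.038 with E2+(2S,6S)-HNK (edgeR adjusted p = 0.000321) to 0.56 ± 0.038 with E2+ketamine (adjusted p = 1.34e-18). After the GC and length correction the calls with ketamine (0.01) and E2+(2S,6S)-HNK (0.00) were lost, and the other rises shrank to 0.09 to 0.19.

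HDAC1 and HDAC2 are the class I deacetylases that give the complex its enzymatic activity. HDAC2 (chromosome 6, 114254192 to 114332472) had the lowest mean fold change of the 10 members over the 7 treatments. It was at 83.1 and 89.1 CPM in vehicle, 52.0 and 50.7 with E2, 54.5 and 55.3 with ketamine, 49.99 and 52.5 with (2R,6R)-HNK and 47.8 and 46.4 with (2S,6S)-HNK. With E2 added it was at 45.9 and 43.7 CPM with ketamine, 42.4 and 44.7 with (2R,6R)-HNK and 55.01 and 58.3 with (2S,6S)-HNK. All 14 treated libraries lay well under vehicle, with E2+(2S,6S)-HNK nearest to it. HDAC2 fell by 0.61 ± 0.043 on the log2 scale with E2+(2S,6S)-HNK (edgeR adjusted p = 2.29e-17) and by 0.98 ± 0.044 with E2+(2R,6R)-HNK (adjusted p = 1.28e-25), a fold of 0.506. The GC and length correction shrank these values to -0.30 and -0.40, and that with (2R,6R)-HNK from -0.75 to -0.10, all still called.

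HDAC1 (chromosome 1, 32757684 to 32799236) moved little. The vehicle libraries were at 148 and 149.7 CPM and the treated libraries ran from 125 to 148 with a median of 135, so that the groups overlapped by 1 (2R,6R)-HNK library. HDAC1 fell in 6 treatments, by 0.11 to 0.23 on the log2 scale. Upper quartile scaling ended the calls with ketamine (-0.02) and (2S,6S)-HNK (-0.03). HDAC1 did not pass the test with (2R,6R)-HNK, where the difference was -0.03 with a 95% interval of -0.09 to 0.03.

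RBBP4 (chromosome 1, 33116743 to 33151812) and RBBP7 (chromosome X, 16857406 to 16888485) are WD-repeat chaperones that bind histones H3 and H4 and also serve other chromatin complexes. RBBP7 was at 238 and 237 CPM in vehicle, 171 and 164 with E2, 183 and 184 with ketamine, 159 and 153 with (2R,6R)-HNK and 151 and 151 with (2S,6S)-HNK. In the presence of E2 the level was 140.1 and 134 CPM with ketamine, 155 and 152 with (2R,6R)-HNK and 187 and 191 with (2S,6S)-HNK. The vehicle libraries stood far above the rest, and the E2+ketamine libraries were the lowest. RBBP7 fell by 0.33 ± 0.029 on the log2 scale with E2+(2S,6S)-HNK (edgeR adjusted p = 2.99e-14) and by 0.79 ± 0.030 with E2+ketamine (adjusted p = 7.15e-29), with the other 5 treatments between these. RBBP4 was at 159 and 167 CPM in vehicle and at 114 to 169 in treated libraries, with both ketamine libraries above both vehicle libraries. It fell in 5 treatments, most with E2+ketamine (-0.49), and did not pass the test with ketamine (0.05, 95% interval -0.01 to 0.11) or E2+(2S,6S)-HNK (-0.04, interval -0.10 to 0.02). With ketamine it was called higher by DESeq2, the test of the study (0.08, adjusted p = 0.0224), and by edgeR with RLE scaling (0.08), upper quartile scaling (0.13) or the compared groups alone (0.07). Under a correction for GC content and length, all 5 of its falls turned into called rises (0.13 to 0.29).

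SUDS3 (chromosome 12, 118814360 to 118855838), which stabilizes the deacetylase on the scaffold, had the widest range of the 10 members, 2.26-fold between the lowest and the highest library. It was at 50.4 and 51.0 CPM in vehicle, 40.1 and 39.4 with E2, 48.8 and 48.8 with ketamine, 34.8 and 36.2 with (2R,6R)-HNK and 42.8 and 44.1 with (2S,6S)-HNK. With E2 added it was at 29.8 and 27.7 CPM with ketamine, 48.8 and 49.8 with (2R,6R)-HNK and 58.5 and 62.6 with (2S,6S)-HNK. The E2+(2S,6S)-HNK libraries were above vehicle and the E2+ketamine libraries far below it. By edgeR, SUDS3 fell by 0.82 ± 0.048 with E2+ketamine (adjusted p = 5.36e-21), by 0.52 with (2R,6R)-HNK, by 0.35 with E2 and by 0.22 with (2S,6S)-HNK, and it rose by 0.25 ± 0.044 with E2+(2S,6S)-HNK (adjusted p = 2.34e-06). The differences of -0.05 with ketamine and -0.04 with E2+(2R,6R)-HNK did not pass the test, with intervals of -0.14 to 0.04 and -0.13 to 0.05. Under the GC and length correction the E2 call was lost (-0.05) and the fall with (2S,6S)-HNK turned into a called rise (0.12). Ketamine (0.16) and E2+(2R,6R)-HNK (0.29) became called rises too. The calls with (2R,6R)-HNK (-0.14), E2+ketamine (-0.34) and E2+(2S,6S)-HNK (0.43) kept their direction.

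SAP18 (chromosome 13, 21714258 to 21723236), a small ubiquitin-fold subunit also found in RNA-processing complexes, was at 58.8 and 62.0 CPM in vehicle and at 46.8 to 57.7, median 50.4, in treated libraries. It fell in all 7 treatments, by 0.10 to 0.34 on the log2 scale, but the call with (2R,6R)-HNK (-0.10, edgeR adjusted p = 0.0459) was lost without (2R,6R)-HNK replicate 1 (-0.07) or vehicle replicate 2 (-0.06), by DESeq2, and with the other filters and scalings (-0.09 to -0.02). Under the GC and length correction, 4 of its 7 values turned to above 0 and the call with E2+(2R,6R)-HNK was lost. SAP30 (chromosome 4, 174291120 to 174298683), which bridges the scaffold and other subunits, was at 24.6 and 29.8 CPM in vehicle, the widest ratio between vehicle replicates among the members, and at 19.7 to 27.0 in treated libraries. It fell with (2S,6S)-HNK (-0.35 ± 0.069, edgeR adjusted p = 1.83e-05) and E2+(2R,6R)-HNK (-0.35 ± 0.068, adjusted p = 9.77e-06), at -0.20 and -0.21 without vehicle replicate 2. Its call with E2+(2S,6S)-HNK (-0.17) was lost without vehicle replicate 2 (-0.03) or E2+(2S,6S)-HNK replicate 1 (-0.14), and by DESeq2 (-0.16) and with upper quartile scaling (-0.07). In the other 4 treatments it differed from vehicle by -0.14 to -0.04, and without vehicle replicate 1 all 4 passed the test (-0.27 to -0.17), while without vehicle replicate 2 all 4 were above 0 (0.01 to 0.10).

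ING1 (chromosome 13, 111365083 to 111375686), a PHD-finger protein that reads trimethylated lysine on histone H3, was the member with the fewest counts. It was at 10.2 and 11.2 CPM in vehicle and at 8.61 to 10.6, median 9.19, in treated libraries, which overlapped. It fell with (2S,6S)-HNK (-0.29 ± 0.088, edgeR adjusted p = 0.00353), E2+ketamine (-0.22) and E2+(2R,6R)-HNK (-0.23). Without vehicle replicate 2, all 3 calls were lost, at -0.22, -0.15 and -0.16. The call with E2+ketamine was also lost without either of its own libraries (-0.21 and -0.22), and that with E2+(2R,6R)-HNK without its replicate 1 (-0.22). DESeq2 did not call ING1 with E2+ketamine (-0.17), and upper quartile scaling ended both calls (-0.16 and -0.15). The E2 value (-0.18) passed the test without vehicle replicate 1 or E2 replicate 1 (-0.25 and -0.24), and the (2R,6R)-HNK value (-0.18) without vehicle replicate 1 (-0.25).

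By treatment, edgeR called 8 members with E2 (1 higher, 7 lower), where 62.5% of all genes were called (29.9% higher, 32.7% lower). It called 6 with ketamine (1 and 5), against 59.3% of all genes (26.8% and 32.5%). With (2R,6R)-HNK it called 7 (1 and 6), against 66.6% (31.7% and 34.9%), and with (2S,6S)-HNK all 10 (1 and 9), against 67.9% (32.1% and 35.8%). In the combinations with E2, it called 9 with ketamine (1 and 8), against 71.7% (34.3% and 37.4%), 9 with (2R,6R)-HNK (1 and 8), against 69.7% (33.4% and 36.3%), and 8 with (2S,6S)-HNK (2 and 6), against 59.7% (24% and 35.7%). The number called ranged from near the share over all genes to 10 of 10, and calls to the lower side outnumbered those to the higher side in every treatment. Under the GC and length correction the called members, higher and lower, were 2 and 5 with E2 (37.6% of all genes called), 2 and 4 with ketamine (48.7%), 3 and 4 with (2R,6R)-HNK (45.2%) and 3 and 5 with (2S,6S)-HNK (56.7%). In the combinations they were 3 and 7 with ketamine (52.3%), 3 and 6 with (2R,6R)-HNK (59.0%) and 2 and 6 with (2S,6S)-HNK (56.1%). The median log2 fold change of the 10 members lay between -0.36 and -0.10, against -0.06 to 0.00 for all genes tested. All 7 comparisons use the same 2 vehicle libraries. None of the 10 members reached a log2 fold change of 1 in either direction, which 1.81% of all genes did with E2, 3.56% with ketamine, 3.75% and 9.08% with the (2R,6R) and (2S,6S) forms of HNK, 11% with E2+ketamine, 11.5% with E2+(2R,6R)-HNK and 5.85% with E2+(2S,6S)-HNK. When single libraries were left out, HDAC2 with E2+(2R,6R)-HNK ran from -1.03 to -0.93.

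**Figure D2:**
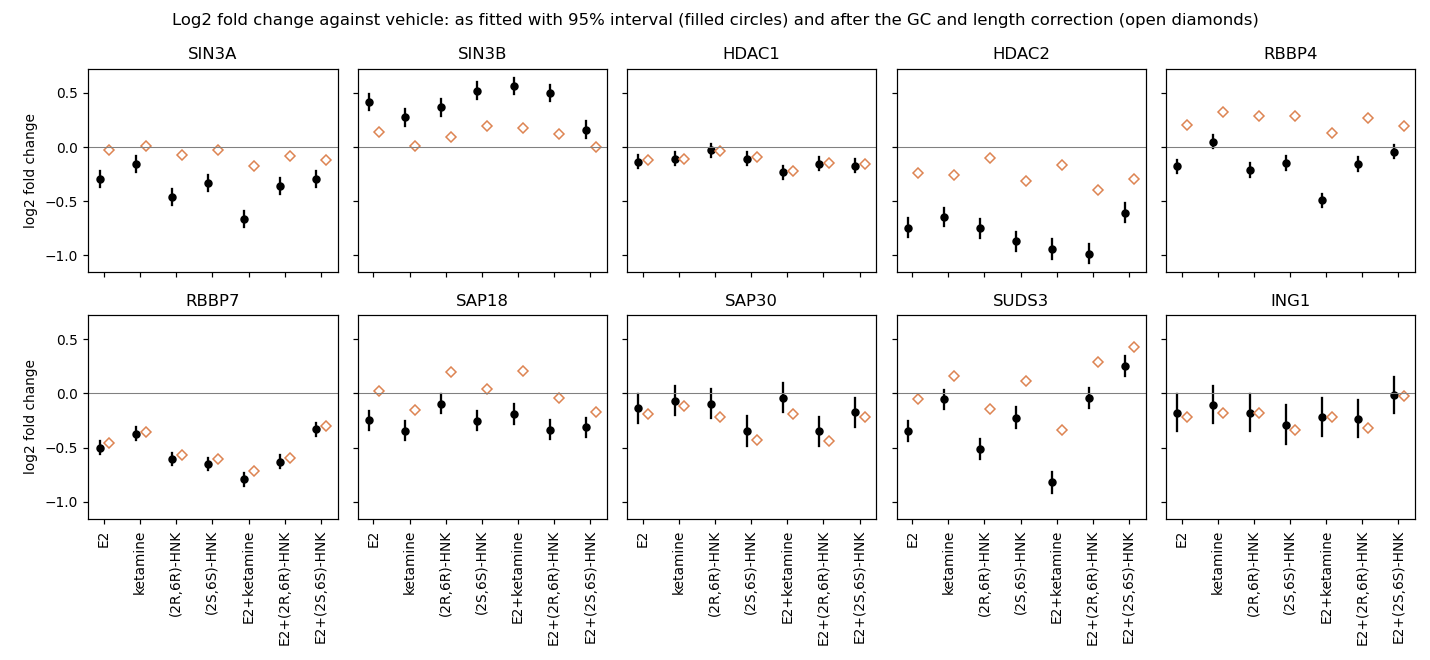
Log2 fold change of each member against vehicle (vertical axis) in the 7 treatments (horizontal axis). Filled circles with bars are edgeR estimates with 95% intervals, and open diamonds are the same after a correction for GC content and length. HDAC2 and RBBP7 lie under 0 by both, while RBBP4 moves from under 0 to above it in most treatments.

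Across all genes, the change against vehicle moved with the GC content of the exons. Over 15346 genes, the Spearman correlation of log2 fold change with GC content ran from 0.44 with E2+(2S,6S)-HNK to 0.77 with E2+ketamine. Genes do not stand for independent replicates, and every comparison uses the same vehicle libraries. The median GC content was 49.3%. HDAC2 was at 38.7%, RBBP4 at 41.9%, SUDS3 at 43.6%, SAP18 and SIN3A at 44.5%, RBBP7 at 48.8%, HDAC1 at 49.5%, ING1 at 50.4%, SAP30 at 51.7% and SIN3B at 56.4%. The member with the lowest GC content had the lowest mean change and the member with the highest GC content the highest. Between them the order was not kept, since RBBP4, at 41.9%, had a mean change of -0.17 and RBBP7, at 48.8%, one of -0.55. GC content moved with these results, and whether it arose in the cells or in the libraries was not tested.

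Set against genes within 1 percentage point of their own GC content, the members fell into different places. SIN3A had a mean log2 fold change over the 7 treatments of -0.37, where 1205 such genes had a median of -0.31, and SIN3B had 0.40, where 970 had 0.29. HDAC2 had -0.79 against -0.59, just under the lower quartile of -0.77. RBBP7 had -0.55 against -0.09, well under the lower quartile of -0.30, and RBBP4 had -0.17 against -0.48, above the upper quartile of -0.25. SAP30 had -0.17 against 0.10, under the lower quartile of -0.10. SUDS3 (-0.25 against -0.36), SAP18 (-0.25 against -0.31), HDAC1 (-0.13 against -0.04) and ING1 (-0.17 against 0.01) lay between the quartiles.

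**Figure D3:**
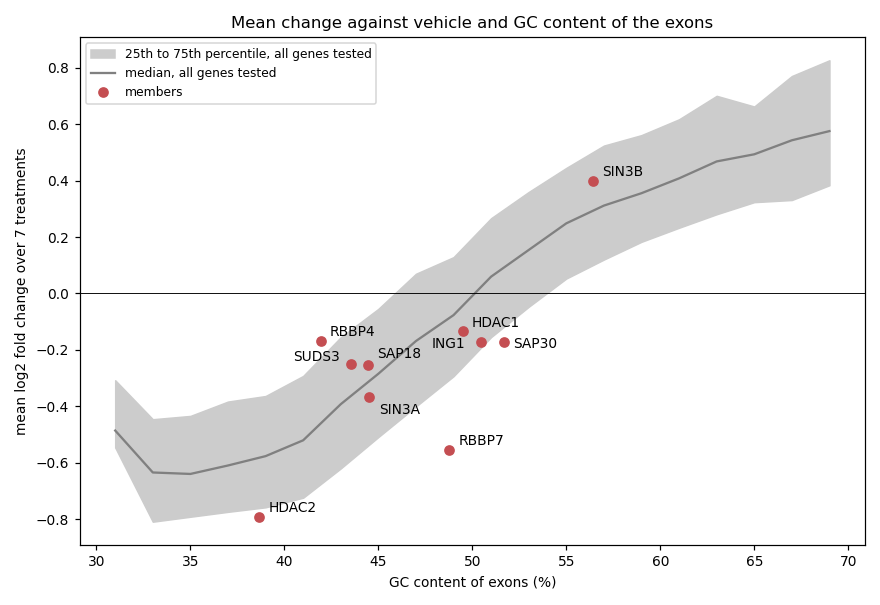
Mean log2 fold change over the 7 treatments (vertical axis) against GC content of exons in % (horizontal axis). The line and band give the median and the 25th to 75th percentile of all genes tested in steps of GC content, and points are the 10 members. RBBP7 (-0.55 at 48.8% GC) lies under the band and SIN3A (-0.37 at 44.5%) near the line.

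A correction for GC content and length, made library by library, takes away every change that tracks either. After it, RBBP7 was lower than vehicle in all 7 treatments (-0.71 to -0.30) and so was HDAC2 (-0.40 to -0.10), and both were called in all 7. HDAC1 kept its 6 calls, at -0.22 to -0.09. SIN3A was called with E2+ketamine (-0.18, edgeR adjusted p = 6.77e-06), E2+(2R,6R)-HNK (-0.08, adjusted p = 0.0298) and E2+(2S,6S)-HNK (-0.12, adjusted p = 0.000875). It was not called with E2 (-0.03, adjusted p = 0.526), ketamine (0.01, adjusted p = 0.84), (2R,6R)-HNK (-0.07, adjusted p = 0.0708) or (2S,6S)-HNK (-0.03, adjusted p = 0.504). SIN3B was called in 5 treatments, at 0.09 to 0.19, and not with ketamine (0.01) or E2+(2S,6S)-HNK (0.00).

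Values of RBBP4, SAP18 and SUDS3 turned under the same correction, as did the SIN3A value with ketamine. RBBP4 was higher than vehicle in all 7 treatments (0.13 to 0.32), each called. SAP18 was higher with (2R,6R)-HNK (0.20) and E2+ketamine (0.21), lower with ketamine (-0.15) and E2+(2S,6S)-HNK (-0.17), and not called in the other 3. SUDS3 stayed lower with (2R,6R)-HNK (-0.14) and E2+ketamine (-0.34), stayed higher with E2+(2S,6S)-HNK (0.43) and was now higher with ketamine (0.16), (2S,6S)-HNK (0.12) and E2+(2R,6R)-HNK (0.29). With E2 its call was lost (-0.05). SAP30 was lower and called in 6 treatments, at -0.44 to -0.19, all but ketamine (-0.12). ING1 was lower and called with E2 (-0.22), (2S,6S)-HNK (-0.33), E2+ketamine (-0.22) and E2+(2R,6R)-HNK (-0.32).

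The ratio of paralogs within a library is free of library scaling. SIN3A counts were 1.77 times SIN3B counts in vehicle, 1.32 times with ketamine and 0.758 times with E2+ketamine. The log2 ratio was 0.79 and 0.86 in the vehicle libraries and -0.44 to 0.40 in the 14 treated libraries, without overlap. HDAC1 counts were 1.73 times HDAC2 counts in vehicle, and 2.33 (E2+(2S,6S)-HNK) to 3.08 times (E2+(2R,6R)-HNK) after treatment. The log2 ratio was 0.75 and 0.83 in vehicle and 1.17 to 1.66 in treated libraries. RBBP4 counts were 0.686 times RBBP7 counts in vehicle and 0.838 to 0.975 times after treatment, with log2 ratios of -0.58 and -0.51 against -0.26 to -0.02.

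For all 3 pairs the exact two-sided permutation test of vehicle against treated libraries gave p = 0.00833 (adjusted over the 3 pairs 0.00833), the smallest that 120 assignments allow. Both vehicle libraries belong to 1 condition, and whole conditions permuted could give no p under 0.125. Complete separation of the vehicle libraries was common, since 43.8% of all single genes had it. The treated libraries span 7 conditions and are not replicates of 1 condition. With either vehicle library left out, the smallest possible p is 0.0667 and the difference in mean log2 ratio, vehicle minus treated, stayed between 0.73 and 0.80 for SIN3A/SIN3B, between -0.70 and -0.61 for HDAC1/HDAC2 and between -0.42 and -0.35 for RBBP4/RBBP7. With the GC and length correction the difference was 0.17 for SIN3A/SIN3B (exact permutation p = 0.0417), -0.13 for HDAC1/HDAC2 (exact p = 0.0917) and -0.75 for RBBP4/RBBP7 (exact p = 0.00833).

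**Figure D4:**
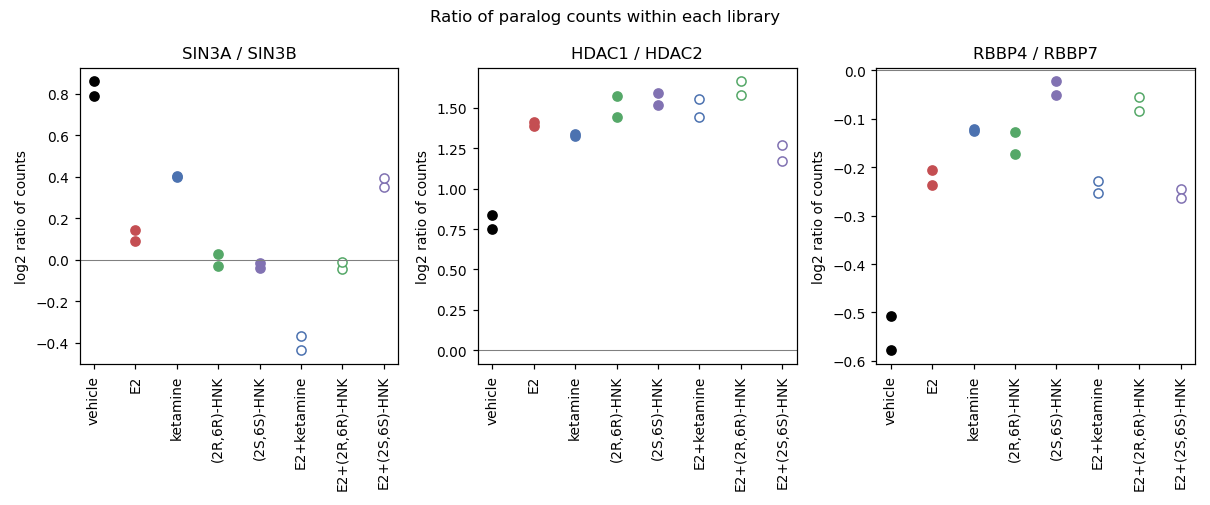
Log2 ratio of counts of SIN3A to SIN3B, HDAC1 to HDAC2 and RBBP4 to RBBP7 (vertical axes) in each library, by condition (horizontal axes). Points are libraries, open for drugs given with E2, and the grey line marks equal counts. In all 3 panels the 2 vehicle points stand apart from the 14 treated points.

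Structurally related drugs were compared at 400 nM and 24 h in 6 pairs, 3 without and 3 with E2. Of the 60 tests of a member in a pair, 43 were called by edgeR with adjustment over all genes of the pair, and the same 43 and 1 more (HDAC2, ketamine against (2R,6R)-HNK, at 0.10, and -0.15 with the GC and length correction) with adjustment over all genes of the 6 pairs. Between the mirror-image metabolites without E2, 7 members were called (4 higher with (2R,6R)-HNK, 3 lower), where 43.5% of all genes were (21% and 22.4%). SUDS3 was lower with (2R,6R)-HNK than with (2S,6S)-HNK (-0.29 ± 0.047, adjusted p = 1.09e-06), as was SIN3B (-0.15 ± 0.037, adjusted p = 0.000579). The other calls were each lost without 1 library. These were SIN3A (-0.13, -0.11 without (2S,6S)-HNK replicate 1, and -0.04 and not called with the GC and length correction), HDAC1 (0.08, and 0.05 or 0.06 without replicate 1 of (2R,6R)-HNK or (2S,6S)-HNK), HDAC2 (0.12, and 0.09 or 0.10 without replicate 2 of either), SAP18 (0.16, and 0.13 without (2R,6R)-HNK replicate 2) and SAP30 (0.25, and 0.19 without (2S,6S)-HNK replicate 2). With the GC and length correction SIN3B was at -0.10 and HDAC2 at 0.21, both called, and HDAC1 was at 0.05 and not called. RBBP4, RBBP7 and ING1 did not pass the test, with 95% intervals of -0.13 to -0.01, -0.01 to 0.11 and -0.07 to 0.29. The intervals are not adjusted for the number of genes, and that of RBBP4 leaves out 0 while its edgeR adjusted p was 0.0732.

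With E2 present, (2R,6R)-HNK against (2S,6S)-HNK called 7 members (1 higher, 6 lower), against 54% of all genes (29.1% and 25%). SIN3B was higher with (2R,6R)-HNK (0.34 ± 0.037, edgeR adjusted p = 5.51e-11), and HDAC2 (-0.38 ± 0.044), RBBP7 (-0.30 ± 0.029), SUDS3 (-0.29 ± 0.044) and RBBP4 (-0.11 ± 0.030) were lower. Under the GC and length correction, SIN3B shrank to 0.11, HDAC2 to -0.10 and SUDS3 to -0.13 (RBBP7 stayed at -0.29), RBBP4 turned to 0.08 and SAP18 was called at 0.13. The calls of SAP30 (-0.18) and ING1 (-0.22) were lost without 1 library, at -0.07 without E2+(2R,6R)-HNK replicate 1 and -0.15 without E2+(2S,6S)-HNK replicate 2 for SAP30, and at -0.23 to -0.21 without any of the 4 libraries for ING1. SIN3A (interval -0.14 to 0.01) and HDAC1 (-0.04 to 0.08) did not pass the test with or without the correction. SAP18 (-0.11 to 0.07 as fitted) passed it only with the correction.

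Ketamine differed from (2R,6R)-HNK without E2 in 7 members (4 higher, 3 lower), against 45.4% of all genes (22.8% and 22.6%). SUDS3 (0.46 ± 0.046, edgeR adjusted p = 3.86e-12), SIN3A (0.31 ± 0.037), RBBP4 (0.26 ± 0.030) and RBBP7 (0.23 ± 0.029) were higher with ketamine and SAP18 lower (-0.25 ± 0.043). Corrected for GC content and length, SIN3A shrank to 0.08 and SUDS3 to 0.30, both called, SAP18 was at -0.35, and RBBP4 was at 0.03 and not called. The calls of SIN3B (-0.09) and HDAC1 (-0.08) were lost without either ketamine library (-0.11 to -0.07) or without (2R,6R)-HNK replicate 1 (-0.06 and -0.05). Ketamine differed from (2S,6S)-HNK in 7 members (6 higher, 1 lower), against 46.1% of all genes (22% and 24.2%), with RBBP7 (0.28), SAP30 (0.28), HDAC2 (0.22), RBBP4 (0.19), SIN3A (0.18) and SUDS3 (0.17) higher and SIN3B lower (-0.25). After the GC and length correction 4 members were called in this pair, where 41.0% of all genes were, RBBP7 (0.25), SAP30 (0.31), SIN3B (-0.18) and SAP18 (-0.19).

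The pairs with E2 held the largest differences between drugs. SUDS3 was lower with E2+ketamine than with E2+(2S,6S)-HNK by a log2 difference of -1.07 ± 0.047 (edgeR adjusted p = 1.01e-25), and than with E2+(2R,6R)-HNK by -0.78 ± 0.048 (adjusted p = 1.81e-19). SUDS3 was the member past a log2 difference of 1 between E2+ketamine and E2+(2S,6S)-HNK, which 5.62% of all genes were. In that pair 8 members were called (2 higher, 6 lower), against 66.8% of all genes (31.7% and 35%), with RBBP7 (-0.46), RBBP4 (-0.45), SIN3A (-0.37) and HDAC2 (-0.34) among the lower and SIN3B (0.40) among the higher. HDAC2 turned to 0.13 with the GC and length correction and SIN3A, at -0.06, was not called. RBBP4 shrank to -0.07 and SIN3B to 0.17 and SAP18 grew to 0.38, whereas SUDS3 was at -0.76 and RBBP7 at -0.41. The calls of SAP18 (0.12) and ING1 (-0.20) were lost without 1 library, SAP18 without replicate 1 of E2+ketamine (0.12) or of E2+(2S,6S)-HNK (0.07) and ING1 without any of the 4 (-0.21 to -0.20).

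Between E2+ketamine and E2+(2R,6R)-HNK, 7 members were called (2 higher, 5 lower), against 52% of all genes (25.3% and 26.7%). Besides SUDS3, the members RBBP4 (-0.34), SIN3A (-0.31) and RBBP7 (-0.16) were lower and SAP30 (0.31, and 0.20 without E2+(2R,6R)-HNK replicate 1) higher with E2+ketamine. The calls of HDAC1 (-0.08) and SAP18 (0.14) were lost without 1 library, HDAC1 without E2+ketamine replicate 1 (-0.06) or either E2+(2R,6R)-HNK library (-0.09 to -0.08) and SAP18 without E2+(2R,6R)-HNK replicate 1 (0.12). SIN3B (interval -0.01 to 0.14), HDAC2 (-0.05 to 0.13) and ING1 (-0.16 to 0.19) did not pass the test. Corrected for GC content and length, HDAC2 was called at 0.23, SIN3A shrank to -0.10 and RBBP4 to -0.15, SAP18 was at 0.25 and SUDS3 at -0.63.

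The interaction, the effect of a drug with E2 minus its effect without E2, was called for 5 members with ketamine, 2 above 0 and 3 below (37.5% of all genes, 24.5% above and 13.1% below). (2R,6R)-HNK had 6 calls, 5 above 0 and 1 below (56.6%, 31.5% and 25.2%), and (2S,6S)-HNK had 9, 8 above and 1 below (65.1%, 32.9% and 32.2%). With (2S,6S)-HNK it was 1.01 ± 0.063 for HDAC2 (edgeR adjusted p = 1.08e-19), 0.83 ± 0.065 for SUDS3 and 0.82 ± 0.042 for RBBP7, and -0.77 ± 0.054 for SIN3B. HDAC2 was the only member to reach 1 (0.96 to 1.06 with single libraries left out), which 10.7% of all genes did. With (2R,6R)-HNK it was 0.83 ± 0.065 for SUDS3 (adjusted p = 1.53e-15), 0.51 ± 0.063 for HDAC2 and 0.48 ± 0.041 for RBBP7. With ketamine SUDS3 went the other way (-0.41 ± 0.066, adjusted p = 1.21e-06), as did RBBP4 (-0.36 ± 0.044) and SIN3A (-0.22 ± 0.053), while HDAC2 was at 0.45 ± 0.063.

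Over all genes, the interaction moved with GC content too, with a Spearman correlation over 15346 genes of -0.29 in the case of ketamine, -0.58 in that of (2R,6R)-HNK and -0.76 in that of the (2S,6S) form. With the GC and length correction the interactions of SUDS3 were -0.44, 0.48 and 0.36 for the 3 drugs in that order and those of RBBP7 were 0.10, 0.42 and 0.76, all called. HDAC2 was at 0.33, -0.05 and 0.27, the second of which was not called. RBBP4 was at -0.40, -0.22 and -0.29, all called, so that it lay below 0 with each drug. SIN3A was at -0.16, 0.02 and -0.07, called with ketamine. SIN3B was at -0.11 with (2R,6R)-HNK and not called, and at -0.32 with (2S,6S)-HNK. SAP18 was called at -0.26 with (2R,6R)-HNK, where it was at 0.01 as fitted. Under the correction 6 members were called with ketamine, 3 above 0 and 3 below (36.2% of all genes called). With (2R,6R)-HNK 4 were called, 2 above 0 and 2 below (43.7%), and with (2S,6S)-HNK 8, 5 above and 3 below (40.4%).

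**Figure D5:**
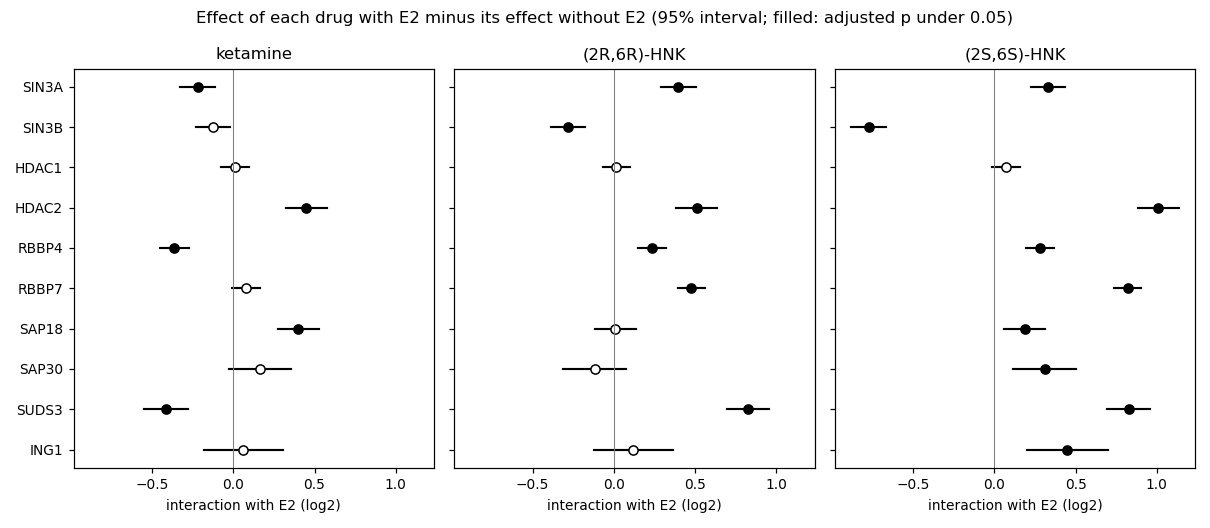
Interaction of E2 with each drug on the log2 scale (horizontal axes) for the 10 members (vertical axis), with 95% intervals. Filled circles passed the test at an adjusted p under 0.05. SUDS3 lies at 0.83 in the panels of both metabolites and at -0.41 in that of ketamine.

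STAT3 rose in all 7 treatments, from 133 ± 0.255 CPM in vehicle (SD, n = 2) to 150.7 ± 1.26 with E2, 150.1 ± 2.26 with (2R,6R)-HNK, 157 ± 2.62 with ketamine and 189.6 ± 1.44 with (2S,6S)-HNK. Its mean with E2 added was 157 ± 3.02 with ketamine, 161 ± 0.544 with (2S,6S)-HNK and 195 ± 4.33 with (2R,6R)-HNK. Its highest log2 fold changes, 0.51 with (2S,6S)-HNK and 0.55 with E2+(2R,6R)-HNK, stood beside SIN3A values of -0.33 and -0.36, and SIN3A was lowest (-0.67) where STAT3 was at 0.24. Against vehicle, the STAT3 fold changes lay at percentiles 60.6 to 80.5 of all genes tested, and 24% to 34.3% of all genes were called higher. All these values are as fitted, and no value of STAT3 with the GC and length correction is given.

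The genes whose pattern over the 16 libraries was most like that of SIN3A, by mean absolute difference in centred log2 CPM among 10373 genes, were SERINC3 (0.030), OTUD7B (0.034), WNK1 (0.040), RBFOX2 (0.040) and RANBP9 (0.040). Of the other members, RBBP4 came nearest at rank 100, followed by RBBP7 at rank 510, and SIN3B was at rank 7401. The genes most like SIN3B were PACS1, FAM189B, TOM1L2, PRKAB1 and MYO9B, each at 0.033, with GC contents of 52.8% to 63.0%. Those named as most like SIN3A had GC contents of 42.7% to 49.6%.

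Other subunits and partners of the complex were counted in the same fit, where 24% to 34.3% of all genes rose and 32.5% to 37.4% fell, depending on the treatment. These shares are as fitted. With the GC and length correction 37.6% to 59.0% of all genes were called in either direction, and their split by direction is not given. Of 17 other SIN3 subunits tested, 4 or 5 rose and 8 to 11 fell (3 to 7 and 5 to 9 with the GC and length correction). From this and each further list, the genes named are the 2 with the lowest and the 2 with the highest mean change over these 7 treatments. Their directions therefore partly follow from that choice. BRMS1L (-0.90 to -0.60) and ARID4B (-0.91 to -0.44), which bridge and scaffold subunits of the large form of the complex, fell in all 7 treatments, and PHF12, a PHD-finger subunit, rose in all 7 (0.14 to 0.44). FOXK1, a forkhead factor that binds SIN3, rose in 6 and was at 0.01 with E2+(2S,6S)-HNK. Of 8 recruiters, 3 to 5 rose and 1 to 3 fell (1 to 5 and 1 to 3 with the correction). REST, the repressor of neuronal genes, fell in all 7 (-1.02 to -0.52), whereas MXD3 (0.46 to 1.12) and MXD4 (0.28 to 0.93), MAX partners that oppose MYC, rose in all 7. MXD1 fell with (2R,6R)-HNK (-0.29) and E2+ketamine (-0.36) and did not pass the test in the other 5.

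HDAC1 and HDAC2 also serve the NuRD, CoREST and MiDAC complexes, of whose 18 other subunits 3 to 8 rose and 5 to 10 fell (2 to 6 and 8 to 11 with the correction). MTA1 of NuRD (0.38 to 0.99) and HMG20B of CoREST (0.48 to 0.87) rose in all 7 treatments, while MBD2 (-0.68 to -0.27) and CDK2AP1 (-0.51 to -0.26) fell in all 7. Of 11 subunits of other complexes that hold RBBP4 or RBBP7, 2 or 3 rose and 6 to 8 fell, with a median log2 fold change of -0.80 to -0.32, against -0.06 to 0.00 for all genes. With the correction 1 to 3 rose and 5 to 9 fell, and the median was -0.30 to -0.03, for which the corrected median of all genes is not given. HAT1, the histone acetyltransferase that pairs with RBBP7 (-1.19 to -0.65), and BPTF of the remodeler NURF (-0.96 to -0.60) fell in all 7. CHAF1B of the chromatin assembly factor rose in 6 (0.14 to 0.35) and was at -0.06 with E2+(2S,6S)-HNK. EZH1, a methyltransferase of Polycomb, rose in 4 treatments (0.27 to 0.42) and did not pass the test in the other 3.

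Of 9 other deacetylases, 4 to 7 rose and 1 or 2 fell (2 to 5 and 2 with the correction). HDAC4, a class IIa enzyme, rose in all 7 treatments, by a log2 fold change of 0.47 with E2 to 1.59 with E2+(2R,6R)-HNK, from a low vehicle level of 2.66 CPM. HDAC10 rose in all 7 (0.47 to 0.83), HDAC3, the class I enzyme of the NCoR complex, rose in 6 (0.14 to 0.47) and HDAC8 fell in all 7 (-0.64 to -0.25). Among the named genes of these lists, HAT1, BRMS1L and REST were at 36.96%, 37.7% and 41.0% GC, and HDAC10, HMG20B and MXD4 at 67.0%, 63.7% and 63.5%, whereas CDK2AP1, which fell, was at 55.5% and CHAF1B, which rose in 6 treatments, at 48.6%. With the GC and length correction the mean over the 7 treatments was 0.85 for HDAC4 (1.09 as fitted), -0.67 for CDK2AP1 (-0.39 as fitted), 0.43 for MXD3 (0.77) and -0.37 for HAT1 (-0.95). It was -0.29 for REST (-0.74 as fitted), -0.22 for BRMS1L (-0.76), -0.28 for ARID4B (-0.71), 0.09 for MXD4 (0.60), 0.19 for MTA1 (0.65), 0.17 for HMG20B (0.67), -0.23 for MBD2 (-0.47), -0.46 for BPTF (-0.77), 0.12 for HDAC3 (0.26) and 0.16 for PHF12 (0.27), while HDAC8 went from -0.40 to 0.05, MXD1 from -0.18 to 0.18, FOXK1 from 0.28 to -0.04 and HDAC10 from 0.66 to 0.08. CHAF1B was at 0.26 (0.20 as fitted) and EZH1 at 0.11 (0.16).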

How the data were processed

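Total RNA of 16 libraries was made into cDNA with the Ovation RNA-Seq v2 kit, sequenced as read pairs, and aligned by the authors to hg19. The submitters' processing notes name TopHat2 2.0.14, Bowtie2 2.2.6 and featureCounts 1.4.6. The authors deposited counts per gene, without normalization, from uniquely mapped, non-discordant pairs. The counts were used as deposited.

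Counts were filtered with filterByExpr and scaled by TMM, and a quasi-likelihood model with a mean for each of the 8 conditions was fitted to all 16 libraries (R 4.3.3, edgeR 4.0.16, limma 3.58.1). DESeq2 1.42.0, the test named by the study, was an alternative. P-values were adjusted by Benjamini-Hochberg over the 16004 genes of each comparison, and a gene was called at an adjusted p under 0.05. A standard error is the fold change divided by the root of F. With 2 libraries against 2, no exact two-sided permutation p can go under 0.333.

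Exon positions, lengths and GC content came from GENCODE models on GRCh37. Current symbols placed 21525 genes of the table and older ones 1481, which gave a value to 95.9% of the genes tested. For the GC and length correction, a loess curve (span 0.5) was fitted in each library and entered as an offset. Paralog ratios used a pseudocount of 0.5. Scripts were tested on simulated data.

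The members and the other lists were chosen with earlier results of these data known. All members were named, as were STAT3 and, from each other list, the 2 genes with the highest and the 2 with the lowest mean change among those whose mean level was 5 CPM or more, and the 5 genes most like SIN3A and SIN3B. Alternatives were other filters and scalings, halved counts, the compared groups alone, the replicate number as a block, GC correction and each library left out. The adjustment over 6 pairs together and the count of genes outside the treated range were added after seeing the data.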

Additional observations from a re-analysis of the deposited data

Results flagged for a closer look

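The effect of a drug differed between cells with and without E2, by an edgeR interaction test, for 20 combinations of member and drug, 5 with ketamine, where 37.5% of all genes were called, 9 with (2S,6S)-HNK (65.1%) and 6 with (2R,6R)-HNK (56.6%). With ketamine the difference (with E2 minus without, log2) was -0.22 for SIN3A, 0.45 for HDAC2, -0.36 for RBBP4, 0.40 for SAP18 and -0.41 for SUDS3. With (2R,6R)-HNK it was 0.40 for SIN3A, -0.28 for SIN3B, 0.51 for HDAC2, 0.23 for RBBP4, 0.48 for RBBP7 and 0.83 for SUDS3. With (2S,6S)-HNK it was 0.33 for SIN3A, -0.77 for SIN3B, 1.01 for HDAC2, 0.28 for RBBP4, 0.82 for RBBP7, 0.19 for SAP18, 0.31 for SAP30, 0.83 for SUDS3 and 0.45 for ING1. The calls of SAP18 and SAP30 with (2S,6S)-HNK were lost without vehicle replicate 2 (0.15 and 0.17), and that of SAP18 also without E2+(2S,6S)-HNK replicate 2 (0.14). With the GC and length correction the calls of SIN3A (0.02), SIN3B (-0.11) and HDAC2 (-0.05) with (2R,6R)-HNK and of SIN3A (-0.07) with (2S,6S)-HNK were lost, and those of RBBP4 with both metabolites (-0.22 and -0.29) and of SAP18 with (2S,6S)-HNK (-0.23) turned.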

How the results depend on the processing

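Of 133 log2 fold changes of members, 120 of them called, all 133 kept direction and side of the threshold with the replicate number as a block and with counts halved, and 132 did with at least 10 counts in every library. The differences of the paralog ratios were 0.76 (SIN3A/SIN3B), -0.66 (HDAC1/HDAC2) and -0.39 (RBBP4/RBBP7) with or without that block. Both replicate numbers occur in every condition, so the block cannot change these differences and does not test their stability. Deviations of same-numbered libraries correlated between -0.0258 and 0.0451 over 28 pairs of conditions, so the numbers pair no libraries. The GC and length correction, alone or with the replicate block, turned 21 values, ended 17 calls without a turn, added 5 calls in the fitted direction (SAP30 with E2, (2R,6R)-HNK and E2+ketamine, ING1 with E2, RBBP4 with ketamine), and took the members called between ketamine and (2S,6S)-HNK from 7 (46.1% of all genes) to 4 (41.0%) and the HDAC1/HDAC2 difference to -0.127. Against vehicle it turned RBBP4 to 0.20 (E2), 0.29 ((2R,6R)-HNK), 0.28 ((2S,6S)-HNK), 0.13 (E2+ketamine), 0.27 (E2+(2R,6R)-HNK) and 0.19 (E2+(2S,6S)-HNK), SAP18 to 0.020 (E2), 0.20 ((2R,6R)-HNK), 0.041 ((2S,6S)-HNK) and 0.21 (E2+ketamine), SIN3A to 0.0095 (ketamine), and SUDS3 to 0.16 (ketamine), 0.12 ((2S,6S)-HNK) and 0.29 (E2+(2R,6R)-HNK). Between drugs with E2 it turned RBBP4 to 0.077 ((2R,6R)-HNK against (2S,6S)-HNK) and HDAC2 to 0.13 (ketamine against (2S,6S)-HNK). Among interactions it turned HDAC2 to -0.052 (-0.053 with the block) and RBBP4 to -0.22 with (2R,6R)-HNK, and SIN3A to -0.066, RBBP4 to -0.29 and SAP18 to -0.23 with (2S,6S)-HNK. The correction by construction removes what tracks GC content, and no other cause was tested. The other turned values were not called by the main test. With upper quartile scaling, which moved the median of all genes by up to 0.105, they were SAP30 0.016 and SUDS3 0.029 (ketamine), HDAC1 0.047 ((2R,6R)-HNK), SAP30 0.023 (E2+ketamine), SUDS3 0.042 (E2+(2R,6R)-HNK), and RBBP4 0.062 and ING1 0.090 (E2+(2S,6S)-HNK). DESeq2 and RLE scaling gave HDAC1 0.0086 and 0.0083, and both gave SAP30 0.013 and ING1 0.0021 in those treatments, and a fit of the compared groups alone gave RBBP4 0.027 and ING1 0.055 with E2+(2S,6S)-HNK. With each library left out in turn, SAP30 ran from -0.27 to 0.0050 (E2), -0.20 to 0.075 (ketamine), -0.23 to 0.048 ((2R,6R)-HNK) and -0.17 to 0.10 (E2+ketamine) and ING1 from -0.083 to 0.058 (E2+(2S,6S)-HNK), in each case from without vehicle replicate 1 to without vehicle replicate 2. Counts of members called in these runs are not given, since the share of all genes called in the same runs is lacking. The paralog differences ran from 0.726 to 0.799, -0.699 to -0.613 and -0.422 to -0.351 over these runs. Their exact p cannot go under 0.0667 in the runs that leave out a vehicle library. ING1, with the fewest counts, had the widest standard errors.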
